A study of Mus musculus with 24 samples.

Results

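A set of 9 genes of hepatic glucose handling was followed in livers of mice fed a methionine-choline deficient (MCD) diet: the glucose transporters Slc2a1 and Slc2a2, the hexokinases Hk1 and Hk2, the pyruvate kinase Pkm, the gluconeogenic enzymes G6pc, Pck1 and Fbp1, and the glycogen synthase Gys2. They were chosen by symbol, and all 9 were present among the 56205 gene rows of the count table and among the 14109 genes with enough counts to be tested. The libraries were made from poly(A) RNA of whole livers of 24 C57BL/6J mice, 12 on the MCD diet and 12 on its control diet, with 20 weeks of feeding and no other treatment or genetic change. The MCD diet is short of methionine and choline and serves as a model of steatohepatitis with fibrosis. The study's methods describe it as high in fat. In its results the model appears as CDAHFD, a choline-deficient diet, and the wording of the labels is used below. Each diet held 6 male and 6 female animals by the series description, but no label gave the sex of a single library, and neither the age at the start of this diet nor the feeding state at collection was given in the sources used here.

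The liver takes up and releases glucose, and sets of paralogous proteins divide this work between hepatocytes and other cells. Hepatocytes import and export glucose mainly through SLC2A2 (GLUT2) and finish glycolysis with the liver pyruvate kinase Pklr. Most other cells, including macrophages and fibroblasts, use SLC2A1 (GLUT1), the high-affinity hexokinases HK1 and HK2, and the M-type pyruvate kinase encoded by Pkm. Gluconeogenesis bypasses the irreversible steps of glycolysis with phosphoenolpyruvate carboxykinase (Pck1), fructose-1,6-bisphosphatase (Fbp1) and glucose-6-phosphatase (G6pc). Glycogen synthase 2 (Gys2) is the liver form of the enzyme that lengthens glycogen chains.

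RefSeq promoter windows of GRCm38.p6, each with 250 bases before and 50 bases after a transcription start, matched 8 of the 9 genes, in 10 windows. They were searched on both strands for 6 short motifs, and the 5 windows printed here were chosen because they hold one, in genes that rose (Slc2a1, Hk1, Pkm) and in gluconeogenic genes that were not called (Pck1, G6pc). The Pck1 window (chr2:173152823-173153122, plus strand) holds the cyclic AMP response element form TTACGTCA, in capitals, with its first base 93 bases before the start. The G6pc window (chr11:101367466-101367765, plus strand) holds the TATA box letters TATAAA 29 bases before the start. In the Slc2a1 window (chr4:119108495-119108794, plus strand) the capitals mark ACGTG, the core of the hypoxia response element, 36 bases before the start and TATAAA 28 bases after it. The second Hk1 window (chr10:62340372-62340671, minus strand) and the second Pkm window (chr9:59656977-59657276, plus strand) hold ACGTG 2 times each, in Pkm on the opposite strand, where it reads CACGT.
Pck1: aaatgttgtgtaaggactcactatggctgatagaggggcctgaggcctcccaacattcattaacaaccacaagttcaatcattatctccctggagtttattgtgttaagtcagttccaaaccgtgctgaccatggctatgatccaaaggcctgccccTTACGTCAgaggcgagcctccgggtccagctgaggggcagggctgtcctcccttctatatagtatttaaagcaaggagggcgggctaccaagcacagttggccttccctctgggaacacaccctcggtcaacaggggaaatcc
G6pc: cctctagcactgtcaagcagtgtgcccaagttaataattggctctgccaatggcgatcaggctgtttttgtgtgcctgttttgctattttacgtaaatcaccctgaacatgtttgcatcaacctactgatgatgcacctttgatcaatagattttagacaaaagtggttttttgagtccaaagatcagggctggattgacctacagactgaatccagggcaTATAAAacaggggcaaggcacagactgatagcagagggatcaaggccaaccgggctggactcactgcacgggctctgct
Slc2a1: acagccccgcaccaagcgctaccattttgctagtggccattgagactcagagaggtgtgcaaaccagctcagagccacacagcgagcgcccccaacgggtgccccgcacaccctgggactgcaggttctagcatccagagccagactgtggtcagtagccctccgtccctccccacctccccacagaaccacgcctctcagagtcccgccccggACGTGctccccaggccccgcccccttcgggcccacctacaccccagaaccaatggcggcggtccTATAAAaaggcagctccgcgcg
Hk1: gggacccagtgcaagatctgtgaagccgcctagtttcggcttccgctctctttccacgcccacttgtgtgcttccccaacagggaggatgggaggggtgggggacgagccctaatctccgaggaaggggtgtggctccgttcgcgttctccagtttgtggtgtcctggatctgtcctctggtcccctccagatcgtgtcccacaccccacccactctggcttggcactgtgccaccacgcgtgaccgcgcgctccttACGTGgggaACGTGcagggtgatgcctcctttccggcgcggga
Pkm: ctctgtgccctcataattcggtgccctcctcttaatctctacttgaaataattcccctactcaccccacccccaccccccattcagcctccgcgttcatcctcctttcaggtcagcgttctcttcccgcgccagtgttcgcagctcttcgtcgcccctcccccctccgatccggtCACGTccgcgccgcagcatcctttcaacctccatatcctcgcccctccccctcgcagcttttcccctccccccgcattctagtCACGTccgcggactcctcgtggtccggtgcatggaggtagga

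TTACGTCA was present in 0.499% of all 32851 promoter windows and in 1 of the 10 windows of these genes. ACGTG was present in 19.6% of all windows and in 4 of the 10, those of Slc2a1, Hk2 and the second windows of Hk1 and Pkm. TATAAA was present in 13.6% of all windows and in 2 of the 10. No window of these genes held the palindromic response element TGACGTCA (1.79% of all windows), the E-box CACGTG (7.15%), which contains ACGTG, or the forkhead motif GTAAACA (3.65%). These matches describe letters in a short window and were not measured as binding sites.

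Total counts ran from 16793207 to 24915175 in control libraries and from 16388650 to 24577848 in MCD libraries. The scaling factors that edgeR derives by its TMM method ran from 0.642 (control 12) to 0.973 in control libraries and from 1.07 to 1.26 in MCD libraries, without overlap, so changes are also given on total counts alone. Levels are given as CPM, the counts of a gene relative to the TMM-scaled total of its library, unless stated. A gene was called at an edgeR FDR of 0.01 or less over all tested genes with a log2 fold change beyond 0.5 in either direction. By this rule 19.2% of all tested genes were called higher and 19.1% lower in MCD livers, and 9.5% had every MCD library above every control library and 4.88% every MCD library below. On total counts alone 32.2% were called higher and 6.01% lower, and the median over all tested genes moved from -0.10 to 0.27 on the log2 scale.

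Of the 9 genes, Slc2a1, Hk1 and Pkm rose and Slc2a2 and Fbp1 fell in MCD livers, while Hk2, G6pc, Pck1 and Gys2 were not called. In 3 of the 9 every MCD library lay above every control library, and in 0 every MCD library lay below. On total counts alone 3 of the 9 were called higher and 1 lower, because Fbp1 came within the fold limit, and no gene called on either scale changed direction between them. The median log2 fold change of the 9 was 0.09 on the TMM scale and 0.42 on total counts alone. In RNA of whole liver, fewer cells of a type and less RNA per cell cannot be told apart.

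**Figure D1:**
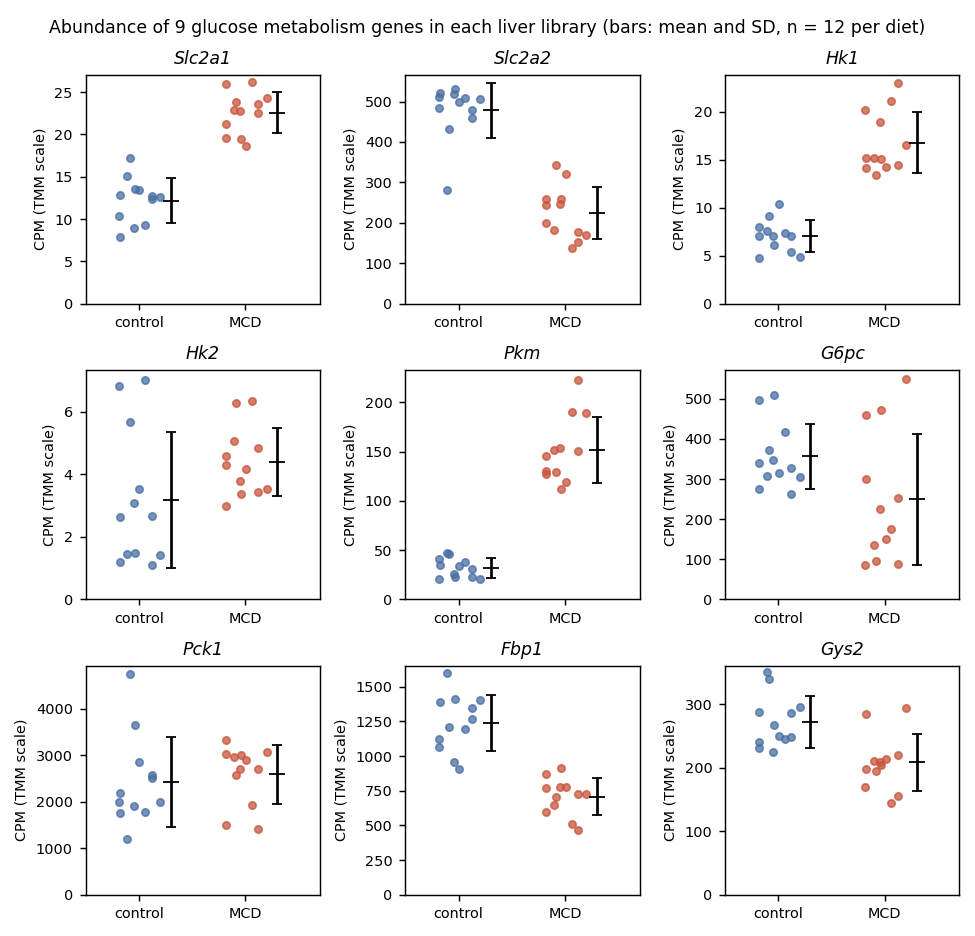
Level of each of the 9 genes in CPM on the TMM scale (vertical axes, each from 0) in the 12 control and 12 MCD libraries (points), with the mean and SD beside them. Slc2a1, Hk1 and Pkm show no overlap between the diets, control 12 is the single low point of Slc2a2, and G6pc in MCD livers runs from 84.8 to 549 CPM.

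The transporters moved in opposite directions. Slc2a1 (ENSMUSG00000028645, chr4:119108711-119137983, plus strand) encodes GLUT1, the transporter of most non-hepatocyte cells. Its level in control livers had a lowest value of 7.87, a median of 12.7 and a highest of 17.2 CPM, and in MCD livers the corresponding values were 18.6, 22.8 and 26.2 CPM. All 12 MCD libraries lay above all 12 control libraries, on 141 to 304 counts a library in control and 453 to 649 in MCD. Mean levels were 12.2 ± 2.67 CPM in control and 22.6 ± 2.45 CPM in MCD (SD, n = 12 each), a log2 fold change of 0.89 (SE 0.103, 95% interval 0.68 to 1.10, edgeR FDR = 3.89e-08). The value for Slc2a1 was 1.26 on total counts alone.

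Slc2a2 (ENSMUSG00000027690, chr3:28697903-28731359, plus strand) encodes GLUT2, the low-affinity transporter of hepatocytes. It ran from 281 through a median of 503 to 532 CPM in control livers and from 137 through 222 to 343 CPM in MCD livers. The diets overlapped only through control 12, at 281 CPM, since the other 11 control libraries lay above every MCD library. The mean was 478 ± 68.3 CPM in control and 224 ± 65.4 CPM in MCD (SD, n = 12 each), a log2 fold change of -1.09 (SE 0.136, 95% interval -1.37 to -0.81, edgeR FDR = 1.22e-07). It was -0.75 on total counts alone, with an edgeR FDR of 1.52e-04 and 2 of 12 MCD libraries below every control library, against 10 on the TMM scale.

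Within a library the ratio of Slc2a1 to Slc2a2 counts does not depend on library scaling. Its median was 0.0252 in control and 0.109 in MCD livers, and every MCD library had a higher ratio than every control library. The mean log2 ratio was -5.30 ± 0.50 in control and -3.26 ± 0.53 in MCD (SD, n = 12 each), a 4.11-fold difference (two-sided permutation test with 100000 resamples, p = 2e-05, the smallest the resamples can give, adjusted p = 4e-05 over 8 ratios). Slc2a2 remained the more abundant transcript per kilobase of longest transcript in both diets, with 85.8 against 3.74 CPM per kilobase in control and 40.3 against 6.92 in MCD livers.

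Of 8 other tested sugar transporters, 2 were called higher and 3 lower, and on total counts alone 4 higher and 2 lower, with the median log2 fold change moving from -0.0049 to 0.35. Slc2a3 (GLUT3) had 0.784 CPM in control and 1.31 CPM in MCD livers and was not called (log2 fold change 0.73, edgeR FDR = 0.016), although on total counts alone it was called higher. Slc2a4 (GLUT4), the insulin-responsive transporter of muscle and fat, had a log2 fold change of -2.90, from 4.80 ± 4.90 to 0.641 ± 0.576 CPM (SD, n = 12 each), with an SD in control above the mean. Slc2a6, a lysosomal transporter of macrophages, rose by a log2 fold change of 2.40 and the sodium-glucose cotransporter Slc5a1 by 1.99. The fructose transporter Slc2a5 had a log2 fold change of -1.50.

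The hexokinases phosphorylate glucose on entry. Hk1 (ENSMUSG00000037012, chr10:62268855-62379908, minus strand) encodes a widely expressed form that binds mitochondria. In control livers Hk1 had a lowest level of 4.72, a median of 7.08 and a highest of 10.4 CPM, and in MCD livers 13.4, 15.2 and 23.0 CPM. Again no MCD library overlapped a control library, with 74 to 185 counts in control and 289 to 631 in MCD. The mean rose from 7.06 ± 1.68 to 16.8 ± 3.19 CPM (SD, n = 12 each), with a log2 fold change of 1.24 (SE 0.123, 95% interval 0.99 to 1.50, edgeR FDR = 2.65e-09) and of 1.60 on total counts alone. The exons of Hk1 overlap the antisense gene Hk1os, which had 0 counts in every control library and 0 to 5 in MCD libraries.

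Hk2 (ENSMUSG00000000628, chr6:82725025-82774454, minus strand), the inducible hexokinase of muscle and of proliferating cells, was the least abundant of the 9 genes. It ran from 1.09 through a median of 2.65 to 7.03 CPM in control and from 2.99 through 4.22 to 6.35 CPM in MCD livers, on 16 to 157 and 64 to 149 counts. The control libraries were spread widely, with 7 below every MCD library and 2 above every MCD library (control 8 at 6.81 CPM and control 11 at 7.03 CPM), while all 12 MCD libraries were above the control median. The coefficient of variation was 68.7% in control and 25.0% in MCD livers. Mean levels were 3.17 ± 2.18 and 4.39 ± 1.10 CPM (SD, n = 12 each), and the log2 fold change of 0.46 (SE 0.273, 95% interval -0.10 to 1.02, edgeR FDR = 0.146) was not called. Total counts alone gave 0.77 with an edgeR FDR of 0.0316.

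Other hexokinase genes with low levels in control livers also rose. Hk3, a hexokinase of myeloid cells, rose from 6.27 to 30.3 CPM (log2 fold change 2.27, edgeR FDR = 3.28e-11) and Hkdc1 from 0.443 to 3.56 CPM (2.99), and in both no library overlapped between the diets. The exons of Hk3 overlap Unc5a on the opposite strand, which had 4.40 CPM in control and 8.99 CPM in MCD livers. Per kilobase, Hk1 had 1.65 CPM in control and 3.92 in MCD livers, Hk2 had 0.575 and 0.797, Hk3 had 1.95 and 9.40, and Hkdc1 had 0.126 and 1.01.

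Pkm had the largest change of the 9 genes. Pkm (ENSMUSG00000032294, chr9:59656368-59679375, plus strand) encodes the M1 and M2 pyruvate kinases of muscle, immune cells and proliferating cells, which gene counts cannot separate. Control livers ran from 20.3 through a median of 32.3 to 47.4 CPM, and MCD livers from 112 through 148 to 223 CPM. All 12 MCD libraries lay above all 12 control libraries, with 312 to 851 counts in control and 2711 to 6124 in MCD. The mean rose 4.76-fold from 31.9 ± 9.87 to 152 ± 33.4 CPM (SD, n = 12 each), a log2 fold change of 2.25 (SE 0.155, 95% interval 1.93 to 2.57, edgeR FDR = 6e-12) and of 2.61 on total counts alone. A gene model on the same strand, Gm49759, shares exons with Pkm and had 3 to 37 counts in control and 32 to 81 in MCD libraries.

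Pklr, the pyruvate kinase of hepatocytes and red cells, fell from 706 ± 221 to 108 ± 26.0 CPM (SD, n = 12 each, log2 fold change -2.71, SE 0.181, edgeR FDR = 3.83e-12), and no MCD library reached the control range. Its exons overlap Hcn3 on the opposite strand, which had 62.8 CPM in control and 4.87 CPM in MCD livers, and whether the counting used strand was not given in the sources used here. The median ratio of Pkm to Pklr counts was 0.0387 in control and 1.40 in MCD livers. On the log2 scale the mean ratio moved from -4.44 ± 0.85 to 0.49 ± 0.48 (SD, n = 12 each), a 30.6-fold difference, with every MCD library above every control library (permutation test, p = 2e-05, adjusted p = 4e-05 over 8 ratios). Per kilobase Pkm stood at 13.1 CPM in control against 243 for Pklr, and at 62.4 against 37.3 in MCD livers, so the order of the pyruvate kinases differed between the diets.

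**Figure D2:**
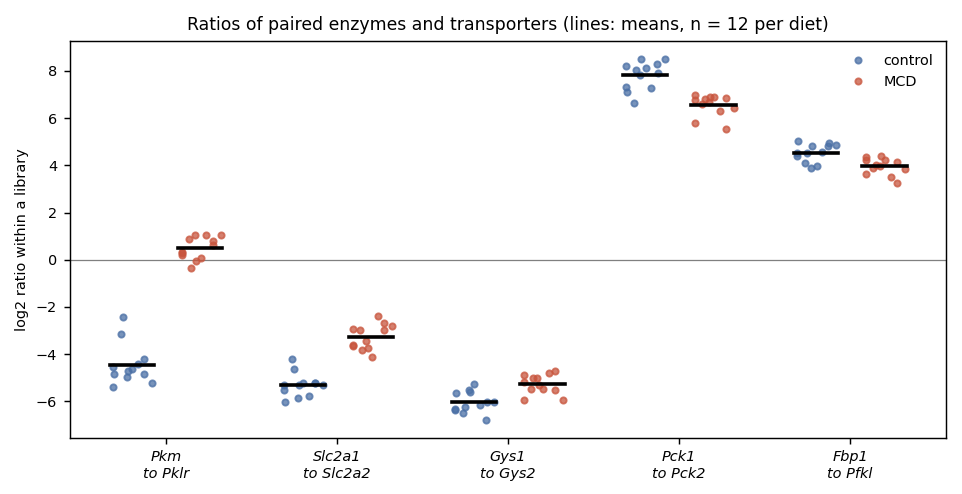
Log2 ratio of the counts of a pair of genes within each library (vertical axis, from log2 CPM with a prior count of 2) for 5 pairs, with control and MCD libraries as points and lines at the means. The ratios of Pkm to Pklr and Slc2a1 to Slc2a2 do not overlap between the diets, and Pkm to Pklr is the only pair whose mean crosses 0, from -4.44 to 0.49.

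Of 18 other tested genes that act below glucose 6-phosphate, with Pklr and the lactate dehydrogenases Ldha and Ldhb counted among them, 4 were called higher and 6 lower, and on total counts alone 5 higher and 3 lower, with the median log2 fold change turning from -0.26 to 0.12. The neuronal enolase Eno2 rose by a log2 fold change of 3.78 from 0.170 to 2.43 CPM, and the platelet-type phosphofructokinase Pfkp by 1.56. Of 5 genes that set fructose 2,6-bisphosphate, the activator of phosphofructokinase, Pfkfb4 rose by 2.36 and Pfkfb2 was called lower at -0.60. On total counts alone 2 of the 5 were called higher and 0 lower.

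Markers of several other cell types rose, as Slc2a1, Hk1 and Pkm did, while most Kupffer cell and endothelial markers fell. All 9 tested markers of monocyte-derived macrophages were called higher, with a summed level of 131 to 326 CPM in control and 1950 to 4340 CPM in MCD livers. Of 9 stellate and mesenchymal markers 8 were called higher and 1 lower (169 to 553 against 780 to 1390 CPM), and all 5 cholangiocyte markers (3.71 to 14.9 against 41.5 to 98.1 CPM) and all 5 proliferation markers (3.67 to 14.5 against 19.4 to 32.3 CPM) were called higher. Neutrophil markers were called higher for all 3 tested of 5 listed (2.24 to 7.07 against 12.2 to 32.9 CPM), and Ly6g was at 0 in at least 6 control libraries. Lymphocyte markers were called higher for 4 of 8 (5.07 to 36.5 against 13.3 to 37.0 CPM). Kupffer cell markers were called lower for 5 of 6 (149 to 445 against 81.3 to 297 CPM) and endothelial markers for 5 of 6 (185 to 271 against 110 to 166 CPM). All these marker calls and levels are on the TMM scale, where 19.2% of all tested genes were called higher and 19.1% lower. On total counts alone those shares were 32.2% and 6.01%, and the markers were not counted on that scale. The part of these cells in the levels of Slc2a1, Hk1 and Pkm was not tested.

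Hepatocyte markers gave the background for the genes of glucose output. The 8 listed markers, Alb and Ttr among them, were all detected and had a summed level of 78100 to 186000 CPM in control and 60700 to 87900 CPM in MCD livers. Of these, 0 were called higher and 3 lower. Erythroid markers were called lower for 4 of 5 tested of 6 listed (339 to 1760 against 180 to 455 CPM). The hepatocyte and erythroid calls and levels are likewise on the TMM scale alone. The part of either in the levels of Slc2a2, Fbp1, Gys2, G6pc and Pck1 was not tested.

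The gluconeogenic genes did not move together. Pck1 (ENSMUSG00000027513, chr2:173153048-173159273, plus strand) encodes the cytosolic carboxykinase that makes phosphoenolpyruvate and is induced by glucagon and glucocorticoids. It was the most abundant of the 9 genes, from 1193 through a median of 2090 to 4747 CPM in control and from 1404 through 2800 to 3332 CPM in MCD livers. The diets overlapped over most of their range, although 9 of 12 MCD libraries were above the control median. Means were 2429 ± 962 and 2591 ± 634 CPM (SD, n = 12 each), with a log2 fold change of 0.09 (SE 0.182, 95% interval -0.28 to 0.47, edgeR FDR = 0.673), and 0.42 with an edgeR FDR of 0.0578 on total counts alone. The mitochondrial form Pck2 rose from 10.5 to 27.0 CPM (log2 fold change 1.36, edgeR FDR = 2.47e-09), and the mean log2 ratio of Pck1 to Pck2 was 7.81 in control and 6.54 in MCD livers (permutation test, p = 4e-05, adjusted p = 6.4e-05).

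Fbp1 (ENSMUSG00000069805, chr13:62864753-62888282, minus strand) encodes the phosphatase that turns fructose 1,6-bisphosphate into fructose 6-phosphate. Control livers ran from 904 through a median of 1240 to 1596 CPM, and MCD livers from 466 through 724 to 912 CPM. A single library on each side overlapped, MCD 7 at 912 and control 3 at 904 CPM, and 11 of 12 MCD libraries lay below every control library. The mean fell from 1240 ± 204 to 707 ± 133 CPM (SD, n = 12 each), a log2 fold change of -0.81 (SE 0.110, 95% interval -1.04 to -0.58, edgeR FDR = 4.96e-07). Scaled by total counts alone, Fbp1 had -0.44 with an edgeR FDR of 2.57e-04, within the fold limit and so not called, and 9 of 12 MCD libraries lay below every control library. Against Pfkl, the liver phosphofructokinase that catalyses the opposing step, the mean log2 ratio of Fbp1 was 4.54 in control and 3.96 in MCD livers, a difference of -0.58 (permutation test, p = 0.00114, adjusted p = 0.00114).

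G6pc (ENSMUSG00000078650, chr11:101367561-101377903, plus strand) encodes the catalytic subunit of glucose-6-phosphatase, which releases free glucose from hepatocytes. Its level ran from 262 through a median of 334 to 510 CPM in control and from 84.8 through 200 to 549 CPM in MCD livers, where 8 libraries lay below every control library and 3 stood high, MCD 10 at 549, MCD 7 at 472 and MCD 9 at 460 CPM. The coefficient of variation was 22.5% in control and 65.4% in MCD livers. Means were 356 ± 80.3 and 249 ± 163 CPM (SD, n = 12 each), and the log2 fold change of -0.52 (SE 0.268, 95% interval -1.07 to 0.03, edgeR FDR = 0.0936) was not called. Total counts alone gave -0.18 with an edgeR FDR of 0.575.

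Among 8 other tested genes of gluconeogenesis 2 were called higher and 3 lower, and on total counts alone 2 higher and 0 lower, with the median log2 fold change turning from -0.30 to 0.06. Besides Pck2, the ubiquitous phosphatase G6pc3 rose (log2 fold change 0.55, edgeR FDR = 1.57e-04). Pyruvate carboxylase, Pcx, which makes oxaloacetate, was lower in every MCD library than in any control library (log2 fold change -0.78, edgeR FDR = 2.46e-09), and the aspartate aminotransferase Got2 had a log2 fold change of -0.73. Both came within the fold limit on total counts alone, Pcx at -0.42 and Got2 at -0.37. The glucose 6-phosphate carrier Slc37a4 had a log2 fold change of -0.44 and was not called, and Fbp2 and G6pc2 had too few counts to be tested.

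Gys2 (ENSMUSG00000030244, chr6:142422613-142473109, minus strand) ran from 225 through a median of 258 to 350 CPM in control and from 145 through 206 to 294 CPM in MCD livers. Of the MCD libraries 10 lay below every control library and the other 2 within the control range. Means were 272 ± 41.0 and 208 ± 44.7 CPM (SD, n = 12 each), and the log2 fold change of -0.39 (SE 0.107, 95% interval -0.61 to -0.17) had an edgeR FDR of 0.00277 but stayed within the fold limit, so it was not called. With total counts alone the value was -0.02 with an edgeR FDR of 0.864. The muscle form Gys1 had 4.16 CPM in control and 5.23 CPM in MCD livers and was not called (log2 fold change 0.33, edgeR FDR = 0.0213), though on total counts alone it was called higher, and its exons overlap Ruvbl2 on the opposite strand. The mean log2 ratio of Gys1 to Gys2 was higher in MCD by 0.76 (permutation test, p = 0.00042, adjusted p = 0.00056), with 6 of 12 MCD libraries above every control library.

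Of 22 other tested glycogen genes 5 were called higher and 11 lower, and on total counts alone 6 higher and 7 lower. Pygl, the liver phosphorylase that breaks glycogen down, fell from 514 to 196 CPM (log2 fold change -1.39, edgeR FDR = 4.8e-13), and Ppp1r3b, which targets the activating phosphatase to liver glycogen, had a log2 fold change of -1.71. The brain and muscle phosphorylases Pygb and Pygm rose by 1.54 and 1.40.

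**Figure D3:**
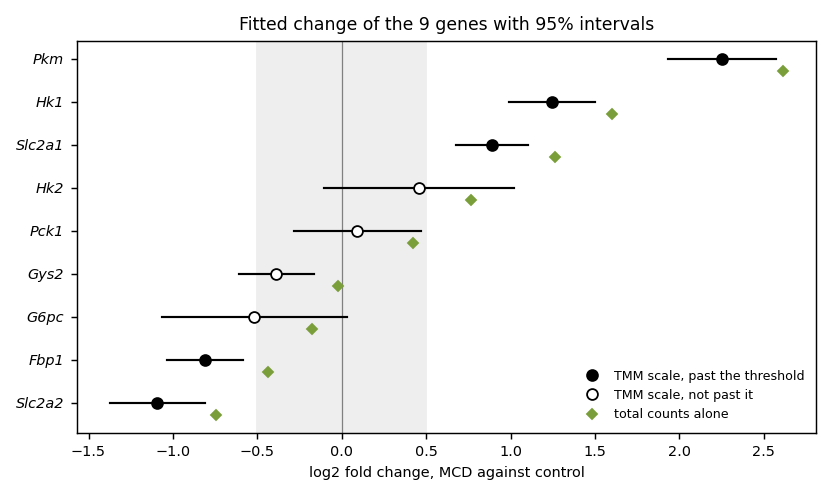
Fitted log2 fold change of each of the 9 genes, MCD against control (horizontal axis), as circles with 95% intervals on the TMM scale, filled where past the threshold, with diamonds for total counts alone and a grey band for the fold limit of 0.5. Pkm stands highest at 2.25 and Slc2a2 lowest at -1.09, and every diamond lies to the right of its circle.

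On a per-length scale the 9 genes spanned 3 orders of magnitude. In control livers Pck1 (890 CPM per kilobase) and Fbp1 (838) overlapped at the top, followed by G6pc (148), Gys2 (102) and Slc2a2 (85.8), of which each overlapped the next. Pkm (13.1) stood apart from its neighbours, and Slc2a1 (3.74), Hk1 (1.65) and Hk2 (0.575) overlapped one after another. In MCD livers Pck1 (950) and Fbp1 (478) again overlapped at the top. Pkm, at 62.4 CPM per kilobase, had moved above Slc2a2 (40.3) and overlapped both it and Gys2 (78.3), while G6pc (103) overlapped Gys2. Below them Slc2a1 (6.92), Hk1 (3.92) and Hk2 (0.797) no longer overlapped.

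**Figure D4:**
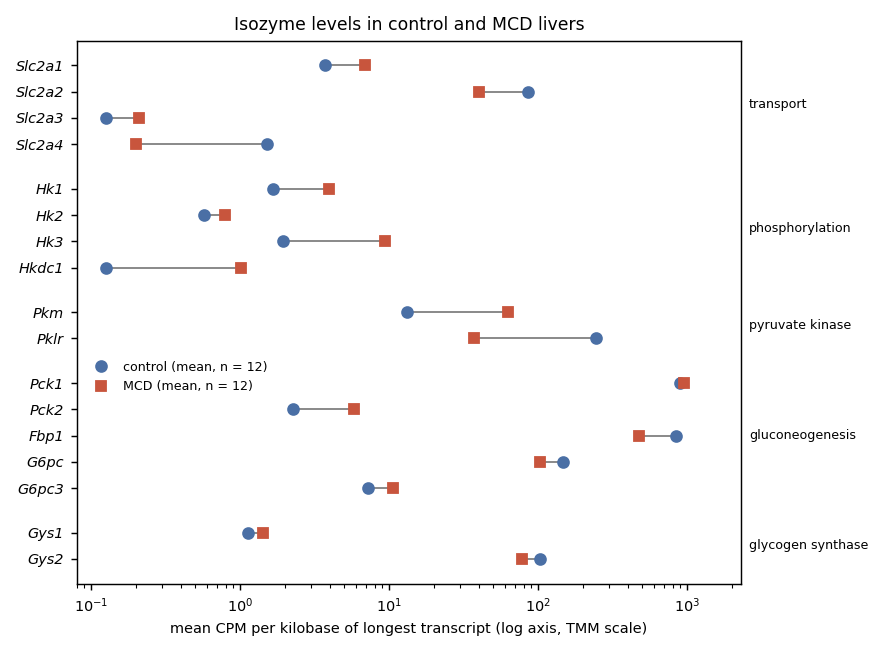
Mean level of the 9 genes and their paralogs in CPM per kilobase of longest transcript (horizontal log axis, n = 12 per diet), with circles for control, squares for MCD and a line joining the pair. The hepatocyte forms Slc2a2 and Pklr lie to the left of their control level in MCD livers, the forms Slc2a1, Hk1, Hk3, Hkdc1 and Pkm lie to the right, and Pkm (62.4) exceeds Pklr (37.3) in MCD livers alone.

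Some of the genes varied together, or in opposite directions, between mice on the same diet. Over the 12 libraries of each diet 72 relations between pairs of the 9 genes were computed on log2 CPM. In control livers Hk1 and Pkm varied together (Pearson r = 0.820, permutation p = 0.00111, adjusted p = 0.0266, and Spearman rho = 0.867, permutation p = 0.00049, adjusted p = 0.0353), with r = 0.698 without the 2 libraries farthest from the median (adjusted p = 0.248 by permutation). They also did in MCD livers (r = 0.767, permutation p = 0.00411, adjusted p = 0.0321, rho = 0.797, permutation p = 0.00295, adjusted p = 0.0425), but this rested on 2 libraries, without which r was 0.472. Slc2a2 and Pkm went in opposite directions in MCD livers (r = -0.789, permutation p = 0.00228, adjusted p = 0.0266, rho = -0.804, permutation p = 0.00237, adjusted p = 0.0425), with r = -0.774 without the 2 libraries. G6pc and Pck1 varied together in MCD livers (r = 0.718, permutation p = 0.00706, adjusted p = 0.0381, rho = 0.825, permutation p = 0.00147, adjusted p = 0.0425, r = 0.715 without the 2 libraries). In control livers Slc2a1 and Gys2 did so (r = 0.826, permutation p = 0.00092, adjusted p = 0.0266, rho = 0.811, permutation p = 0.00218, adjusted p = 0.0425, r = 0.768 without the 2 libraries). None of the 5 kept an adjusted p of 0.05 or less on the libraries left. The other relations did not pass on both measures. Each diet held both sexes, and the part of sex, cell composition and shared scaling in these relations was not tested.

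The genes most alike to each in their deviations from the diet means were taken from 10112 genes with a mean of at least 5 CPM, over the 24 libraries, as a description. Pkm was closest to Mfge8 (r = 0.944) and to the macrophage marker Cd68 (0.937). Hk1 was closest to Apobec3 (0.919) and Tgfb1 (0.912), and Hk2 to Arhgef2 (0.896) and Gipc2 (0.894). Within the diets the value for Hk2 and Arhgef2 was 0.946 in control and 0.390 in MCD livers, and for Hk2 and Gipc2 0.920 and 0.668. Slc2a2 was closest to Anks4b (0.880) and St6gal1 (0.864), and Slc2a1 to Lmo4 (0.749) and Gm8893 (0.722). Among the gluconeogenic genes, Pck1 was closest to Slc7a2 (0.858) and Slc15a4 (0.826), G6pc to Mfsd2a (0.822) and Slc25a25 (0.809), and Fbp1 to Uqcrfs1 (0.833) and Mrpl18 (0.820). For G6pc the likeness was mostly in the MCD libraries, with 0.397 in control and 0.890 in MCD livers for Mfsd2a and 0.0946 and 0.944 for Slc25a25. Gys2 was closest to Brap (0.768) and Slc25a22 (0.754). The libraries shared their scaling, which enters every one of these values.

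Across 106 other tested genes of glucose and glycogen metabolism, of 113 listed, 21 were called higher and 41 lower, and on total counts alone 29 were called higher and 21 lower. Over all tested genes 19.2% were called higher and 19.1% lower, and on total counts alone 32.2% and 6.01%. The median log2 fold change of the 106 was -0.33 on the TMM scale and 0.03 on total counts alone, beside -0.10 and 0.27 for all tested genes.

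**Figure D5:**
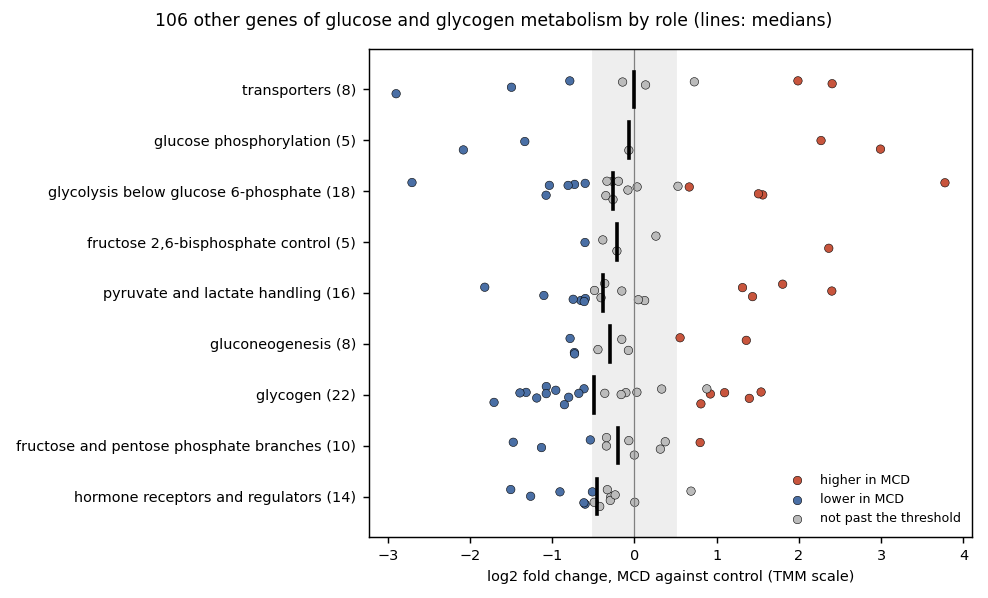
Log2 fold change, MCD against control on the TMM scale (horizontal axis), of 106 other genes of glucose and glycogen metabolism as points in 9 roles, with the number tested in brackets, lines at the role medians and a grey band for the fold limit of 0.5. On this scale each role holds genes called lower and every role median lies below 0, with the lowest at -0.49 for glycogen genes, but on total counts alone the medians of 6 of the 9 roles lie above 0, and gluconeogenesis and fructose 2,6-bisphosphate control hold 0 genes called lower.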

How the data were processed

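RNA of whole liver was measured in 24 libraries, 12 per diet. The authors deposited raw read counts per Ensembl gene, with no normalization. The submitters' processing notes name bcl2fastq, STAR 2.7.3a and mm10. The study's methods name a stranded mRNA kit, and an exon quantification pipeline and PISCES for reads aligned to a human reference. For the mouse libraries the counting program, annotation release and strand setting are not given in the sources used here. Symbols, exon overlaps, positions and transcript lengths came from GENCODE mouse release vM21 (GRCm38), which named 51745 of 56205 rows, and promoters from RefSeq GRCm38.p6. All 24 columns matched a sample title and 0 were left unused.

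After filterByExpr and TMM scaling, the diets were compared in edgeR 4.0.16 by quasi-likelihood (glmQLFit and glmQLFTest in R 4.3.3) with no covariate (biological coefficient of variation 26.8%). SEs are the absolute log2 fold change over the square root of the F statistic. Ratios used log2 CPM with a prior count of 2 and two-sided permutation tests (scipy 1.17.1, Python 3.11.15), as did the relations between genes. The edgeR fit was tested on simulated counts. Alternatives were other scalings and filters, DESeq2 1.42.0, limma-voom (limma 3.58.1), a replicate block, a covariate for sex-linked expression, other limits, a prior count of 0.5 and leaving out each library.

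The 9 genes, the pathway list, the marker lists, the motifs and the tests were chosen with earlier results of these data known. Results of some genes and ratios that the rule for named genes takes in are not reported here. The text names all 9, their paralogs and partners, and in each role the 2 called genes with the largest rise and the 2 with the largest fall. No label ties a library to a litter or batch, so p-values measure the spread between these libraries. The authors' count columns hold no molecular identifiers, so they do not tell amplified copies apart. At low counts the edgeR SEs and FDRs cover counting error and the spread between libraries together.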

Additional observations from a re-analysis of the deposited data

How the results depend on the processing

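Over 24 fits that each left out 1 library, no call among the 9 genes or the 8 ratios changed. All-gene counts ran from 2701 to 3052 higher and from 2228 to 2812 lower, and those of the pathway list from 21 to 22 and from 39 to 42. No fold change of the 9 genes or the named pathway genes, and no ratio, changed direction under any alternative run, while the medians of the pathway list and of all tested genes turned from below to above 0 on total counts alone, the latter also with upper-quartile factors. Of 99 other values for the 9 genes 93 kept their call. On total counts alone 4539 genes were called higher and 848 lower, against 2712 and 2688, with 1 of the 9 genes lower, 21 of the pathway list lower and Fbp1 at -0.44. With upper-quartile factors 1710 genes were called lower. At least 10 counts in every sample left 1801 genes called higher, with fewer genes tested. With an FDR of 0.05 and any fold 5221 were called lower, among them Gys2 at -0.39. A log2 limit of 1 left 686 lower, 19 of the pathway list and 1 of the 9 genes, and ended the calls of Fbp1 (-0.81) and Slc2a1 (0.89). For the named pathway genes, of 367 such values 9 lost and 8 gained a call, and of 816 that left out a library 1 gained one.

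The labels give both diets the replicate numbers 1 to 12. Same-numbered libraries deviated together (r above 0.1) in 8 of 12 pairs, with r from -0.28 to 0.349. Differently numbered libraries were not set beside them, so this cannot tell whether the numbers pair the mice. With the number as a replicate block, Hk2 was called higher at 0.68 (edgeR FDR = 0.00812) and G6pc lower at -0.78 (edgeR FDR = 0.00736), giving 4 of the 9 genes higher and 3 lower. The cause was not tested. Among the 9 genes depth limits Hk2 most, with 16 counts in its lowest library, and some of the named pathway genes, Eno2 and Slc2a3 among them, reached lower counts.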

Other observations

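Further roles of the pathway list, already included in the counts over its 106 tested genes, are described here by gene. Of all tested genes 19.2% were called higher and 19.1% lower, and 32.2% and 6.01% on total counts alone. Of 16 tested genes of pyruvate and lactate handling 4 were called higher and 6 lower, and on total counts alone 4 higher and 2 lower. The lactate exporter Slc16a3 rose from 0.746 to 3.95 CPM (log2 fold change 2.40) and the pyruvate dehydrogenase kinase Pdk3 from 0.727 to 2.55 CPM (1.80), while Pdk1, a kinase of the same family, fell from 128 to 36.1 CPM (-1.82) and Dlat, the E2 subunit of pyruvate dehydrogenase, from 75.3 to 35.1 CPM (-1.10). On the TMM scale every library of 1 diet lay beyond every library of the other in each of these 4 genes. On total counts alone this held for Slc16a3 and Pdk3, while 7 of 12 MCD libraries lay below every control library for Pdk1 and 0 of 12 for Dlat.

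Of 10 tested genes of fructose use and the pentose phosphate branch 1 was called higher and 3 lower, and on total counts alone 3 higher and 2 lower. The shares over all tested genes were 19.2% and 19.1%, and on total counts alone 32.2% and 6.01%. Ketohexokinase, Khk, which starts fructose breakdown, fell from 631 to 227 CPM (log2 fold change -1.47) and the triokinase Tkfc from 544 to 248 CPM (-1.13), with no overlap between the diets on the TMM scale and 11 of 12 MCD libraries of Tkfc below every control library on total counts alone, while G6pdx, which opens the pentose phosphate branch, rose from 11.2 to 19.4 CPM (0.80). Of 14 hormone receptors and regulators 0 were called higher and 6 lower by edgeR on the TMM scale, and 1 higher and 3 lower on total counts alone. Mlxipl, which encodes the glucose-responsive factor ChREBP, fell from 301 to 125 CPM (-1.26) and the insulin receptor substrate Irs1 from 14.1 to 4.98 CPM (-1.50).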
